A study of Mus musculus with 10 samples.

Results

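Matrix metalloproteases and their tissue inhibitors were followed across 3 macrophage populations of skeletal muscle. The 9 genes were chosen by name, 6 proteases (*Mmp8*, *Mmp9*, *Mmp12*, *Mmp13*, *Mmp14* and *Mmp19*) and 3 inhibitors (*Timp1*, *Timp2* and *Timp3*), of 17001 genes in the table. RNA of cells sorted by flow cytometry from hindlimb muscle of mice 4 weeks old was sequenced in 10 libraries. The populations were defined by staining for galectin-3 (gal-3), Folr2 and CD52. Skeletal muscle-resident macrophages (SkMRMs, 3 libraries, WT1 to WT3) came from wild-type (WT) C57BL/10 mice, whose muscle macrophages stained strongly for Folr2 and not for gal-3. Gal-3+ macrophages (gal-3+ cells, 4 libraries, mdx1, mdx3, mdx4 and mdx5), high in gal-3 and low in Folr2, came from mdx mice (C57BL/10ScSn-Dmdmdx/J), which carry a mutation of the dystrophin gene and model Duchenne muscular dystrophy. Monocyte-derived macrophages (MDMs, 3 libraries, mdx1, mdx4 and mdx5), CD52+ cells low in gal-3 and without Folr2, came from mdx mice as well. The SkMRM libraries were therefore the only ones from WT mice, and a difference of SkMRMs from the other populations cannot be told apart from a difference between WT and mdx muscle. Sample titles call the libraries biological replicates, but the labels do not say whether each is a separate mouse or whether a gal-3+ and an MDM library with a shared number came from 1 mouse. The p-values thus measure the spread between these libraries.

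Metalloproteases are zinc-dependent endopeptidases that cut collagens, elastin, fibronectin and other matrix proteins, and they also release or inactivate growth factors and chemokines. Most are made as inactive zymogens and become active when their prodomain is removed by plasmin, furin or another protease. Tissue inhibitors of metalloproteases (TIMPs) bind the active site, so the balance of protease and inhibitor is a measure commonly used in work on fibrosis, where macrophages can be a source of both.

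On mm10 with the GENCODE M21 annotation, 3 of the genes lie in a cluster of metalloproteases on chromosome 9. The collagenase gene *Mmp13* is at chr9:7272514-7283331, the macrophage elastase gene *Mmp12* at chr9:7344381-7369499 and the collagenase gene *Mmp8* at chr9:7558456-7568485, all on the plus strand and within 296 kb. The other genes are dispersed: *Mmp9* (chr2:164940780-164955850), *Mmp14* (chr14:54431612-54445364), *Mmp19* (chr10:128790910-128800824), *Timp1* (chrX:20870166-20874735), *Timp2* (chr11:118301069-118355740, minus strand) and *Timp3* (chr10:86300372-86349506). RefSeq promoters on GRCm38.p6, 250 bases before to 50 after the start, were held for 7 of the 9 genes. They were searched on both strands for 4 motifs, AP-1 (TGANTCA), the TATA box (TATAAA), C/EBP (TTGCNNAA) and PU.1 (GAGGAAGT), which do not overlap each other in the matches found. Among 32851 RefSeq promoters of 300 bases, 7.81% held the AP-1 letters, 13.6% the TATA box, 10.8% the C/EBP letters and 3.2% the PU.1 letters. Matches were found in 3 of the genes, those of the cluster on chromosome 9, which are shown because their RNA levels differed in pattern across the populations. The last 120 bases before each start are printed 5′ to 3′ on the plus strand, with matches in capitals:
Mmp13, chr9:7272394-7272513: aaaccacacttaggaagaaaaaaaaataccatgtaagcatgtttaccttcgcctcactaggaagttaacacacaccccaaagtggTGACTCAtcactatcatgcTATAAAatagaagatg
Mmp12, first start, chr9:7344277-7344396: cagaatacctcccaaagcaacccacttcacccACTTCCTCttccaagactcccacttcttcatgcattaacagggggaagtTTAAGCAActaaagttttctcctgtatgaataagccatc
Mmp12, second start, chr9:7347254-7347373: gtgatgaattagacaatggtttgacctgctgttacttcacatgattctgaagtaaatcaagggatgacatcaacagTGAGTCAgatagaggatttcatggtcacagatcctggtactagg
Mmp8, chr9:7558309-7558428: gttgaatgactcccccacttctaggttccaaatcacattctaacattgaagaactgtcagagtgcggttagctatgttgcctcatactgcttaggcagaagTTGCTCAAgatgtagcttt

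The AP-1 letters stood in the *Mmp13* promoter and before the second start of *Mmp12*. The C/EBP letters stood on the minus strand before the first start of *Mmp12* and on the plus strand in the *Mmp8* promoter. The PU.1 letters were on the minus strand before the first start of *Mmp12* and, outside the printed stretch, of *Mmp8*. The *Mmp13* stretch also holds a TATA box. The TATA letters of *Mmp8*, on the minus strand, and of the second *Mmp12* start lie across or after the start and are not printed. These matches describe letters in a window, and binding of the factors was not measured.

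Values are normalized counts, reads per gene divided by a single factor per library. Each came back to a whole read within 0.001 for 100% of values, and the libraries held 22395027 to 75907638 reads, so that 1 read is worth 0.361 to 1.58 normalized counts. Populations were compared by limma on log2(normalized count + 1), a scale that understates changes of low genes, and a gene is called higher or lower when its fold is 2 or more with an adjusted p, over all genes of the table, under 0.01. An error after ± is the SD between libraries (n = 3 for SkMRMs, 4 for gal-3+ macrophages and 3 for MDMs), and SE is a standard error. In these bulk samples, fewer cells of a type and less RNA per cell cannot be told apart. All 12 macrophage markers searched had reads in every library and together took 1.60 to 1.68% of reads in SkMRMs, 1.44 to 1.72% in gal-3+ cells and 1.12 to 1.27% in MDMs. Single markers differed more than this sum. Of the 12, 3 were called higher and 2 lower in gal-3+ cells against SkMRMs (17.3% of all genes called). The counts were 4 and 4 in MDMs against SkMRMs (26.8%), and 0 and 5 against gal-3+ cells (11.5%). Mean *Lyz2* was 91521, 209873 and 201893 in SkMRMs, gal-3+ cells and MDMs, and mean *Mrc1* 126461, 39329 and 19587.

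**Figure D1:**
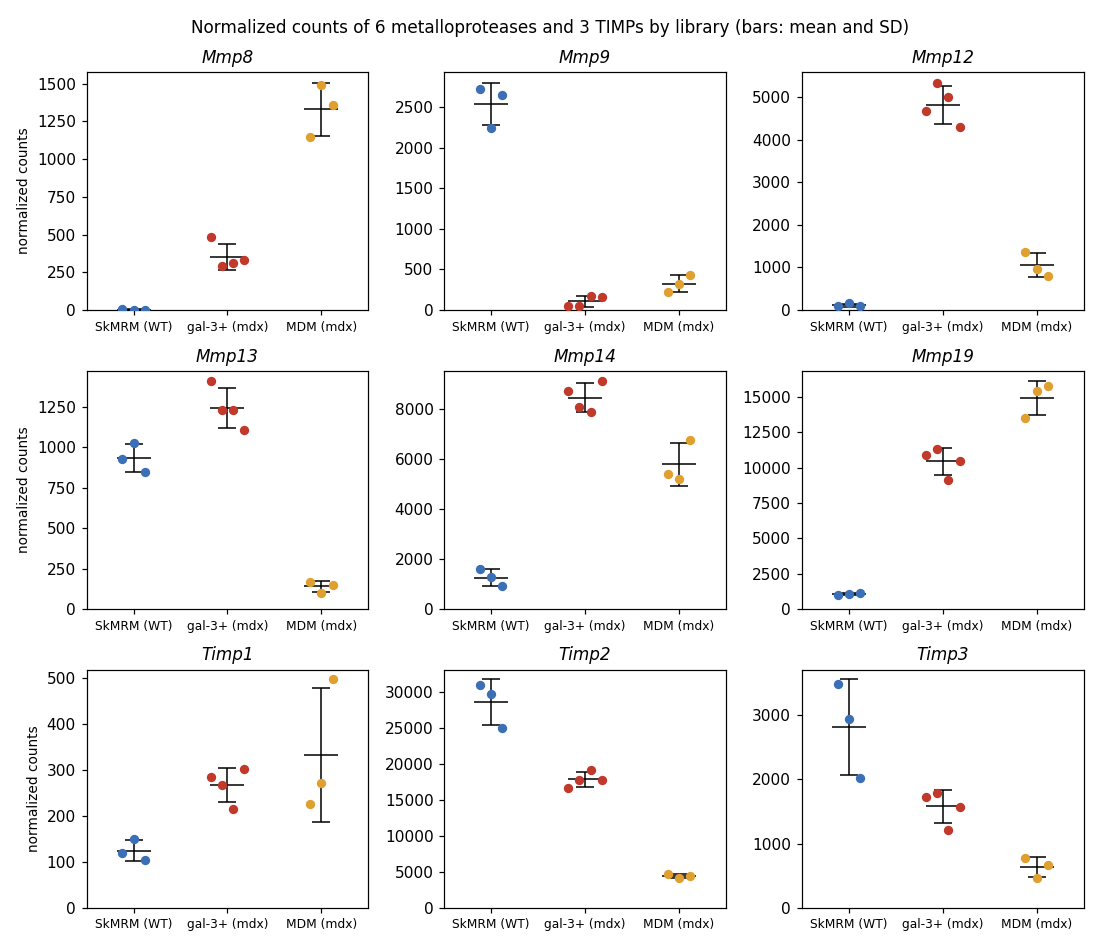
Normalized counts of each of the 9 genes (y axis, a separate linear scale from 0 in each panel) in the 3 populations (x axis), with a point per library and bars for the mean and SD. *Mmp12* and *Mmp14* are highest in the gal-3+ libraries, *Mmp8* and *Mmp19* in the MDM libraries, and *Mmp9*, *Timp2* and *Timp3* in the SkMRM libraries.

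Gal-3+ macrophages and MDMs from mdx muscle had more RNA of 4 of the 6 proteases than SkMRMs from WT muscle, and less *Mmp9*. *Mmp13* and the inhibitors *Timp2* and *Timp3* were lowest in MDMs. Of the 9 genes, 6 were called in gal-3+ cells against SkMRMs, 5 higher and 1 lower, where 17.3% of all genes were called, 5.34% higher and 11.9% lower. In MDMs against SkMRMs 9 were called, 5 higher and 4 lower (26.8%, 8.81% and 18% of all genes). In MDMs against gal-3+ macrophages 6 were called, 2 higher and 4 lower (11.5%, 3.32% and 8.19% of all genes). The libraries did not overlap for 9 of 9 genes between gal-3+ macrophages and SkMRMs, 6 higher and 3 lower (52.2% of all genes, 24.2% higher and 28.1% lower). The same was true of 9 of 9 between MDMs and SkMRMs, 5 higher and 4 lower (64.4%, 29.5% and 34.9%), and of 8 of 9 between MDMs and gal-3+ macrophages, 3 higher and 5 lower (42.4%, 21.6% and 20.8%). The median log2 fold change of the 9 genes was 1.10 for gal-3+ macrophages over SkMRMs, 1.34 for MDMs over SkMRMs and -0.56 for MDMs over gal-3+ macrophages, beside -0.11, -0.17 and 0.03 over all genes. These comparisons share libraries and are not independent of each other.

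*Mmp12* encodes macrophage elastase, which cuts elastin and other matrix proteins. Its normalized counts were 96.8, 160.0 and 93.5 in the SkMRM libraries WT1 to WT3. The gal-3+ libraries mdx1, mdx3, mdx4 and mdx5 had 4660, 5325, 5006 and 4287, and the MDM libraries mdx1, mdx4 and mdx5 had 1365, 976 and 811. The 3 populations formed separate groups, with gal-3+ macrophages highest and SkMRMs lowest. The means were 117 ± 37.5, 4820 ± 447 and 1051 ± 284. *Mmp12* was 42.1-fold higher in gal-3+ cells than in SkMRMs (log2 fold change 5.40, SE 0.18, limma adjusted p = 2.97e-13) and 8.998-fold higher in MDMs than in SkMRMs (3.17, SE 0.19, adjusted p = 4.18e-10). MDMs had 4.68-fold less than gal-3+ cells (-2.23, SE 0.18, adjusted p = 9.11e-08). *Mmp12* shares 157 bases of exon, 2.17% of its own, with *Mmp1b* on the other strand, and whether the reads were counted by strand is not given in the sources used here.

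*Mmp8* encodes the collagenase that was first found in neutrophil granules. In SkMRMs it had 4 reads in WT1, 0 in WT2 and 1 in WT3, or 4.67, 0 and 0.361 normalized counts, and a count of 0 in WT2 allows up to 2.33. Gal-3+ libraries had 481, 295, 310 and 332 normalized counts and MDM libraries 1143, 1488 and 1355. Both mdx populations were above every SkMRM library, and each MDM library was above each gal-3+ library. The fitted log2 fold change over SkMRMs was 7.46 (SE 0.45, limma adjusted p = 5.12e-10) in gal-3+ cells and 9.39 (SE 0.48, adjusted p = 3.95e-11) in MDMs, but with so few reads in SkMRMs its size depends on the value added before the logarithm, and it ranged from 5.79 to 8.41 and from 7.70 to 10.32 over the alternatives tried. Between the mdx populations *Mmp8* was 3.79-fold higher in MDMs (1.92, SE 0.45, adjusted p = 0.00276), a call lost with a pseudocount of 0.5 (adjusted p = 0.012) and without any 1 of MDM mdx1, mdx4 or mdx5 (adjusted p 0.0104 to 0.018), at log2 fold changes of 1.84 to 2.03.

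Of 18 listed neutrophil markers, 12 were analysed here. In gal-3+ cells against SkMRMs 1 of them was called higher and 0 lower, with a median log2 fold change of -0.23. In MDMs 4 were called higher and 0 lower against SkMRMs (median 0.91), and 3 higher and 0 lower against gal-3+ cells (1.11). Over all genes 17.3%, 26.8% and 11.5% were called in these comparisons, with medians of -0.11, -0.17 and 0.03. Together the 12 markers took 0.00271 to 0.00467% of reads in SkMRMs, 0.0109 to 0.0128% in gal-3+ cells and 0.0131 to 0.0158% in MDMs. Most of that sum was *Csf3r*, the receptor of granulocyte colony-stimulating factor, which monocytes also express, at 434 ± 26.3, 3238 ± 266 and 3855 ± 212 normalized counts. *S100a8*, abundant in neutrophils and monocytes, had 13.8 ± 15.4, 39.0 ± 13.9 and 195 ± 36.1. The granule genes *Camp*, *Ltf*, *Ngp* and *Mpo* had means of 13.6 or less in MDMs and were not called in any comparison, and *Camp* was at 0 in MDM mdx1 and mdx4 and in gal-3+ mdx1, mdx3 and mdx5. *Fcnb* had means of 2.40, 7.46 and 62.1 and *Padi4* of 289, 262 and 683 in SkMRMs, gal-3+ cells and MDMs, and both were called higher in MDMs in both comparisons. *Prtn3* had 16.6, 13.4 and 55.5 and was not called. *Ngp* was at 0 in gal-3+ mdx1 and mdx3, *Mpo* in gal-3+ mdx4 and *Fcnb* in SkMRM WT1. *Ly6g* and 5 other listed markers were not analysed here, and the part of neutrophils in the *Mmp8* result was not tested.

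*Mmp13*, the other collagenase gene of the cluster and one that cartilage and bone cells also use, had the reverse order between the mdx populations. It had 925, 1027 and 850.0 normalized counts in SkMRMs, 1409, 1228, 1231 and 1105 in gal-3+ cells and 168, 101 and 150.3 in MDMs. The MDM libraries stood far below the other 7, whereas SkMRM and gal-3+ libraries lay close together without overlap. MDMs had 9.02-fold less *Mmp13* than gal-3+ cells (log2 fold change -3.17, SE 0.16, limma adjusted p = 2.83e-10) and 6.78-fold less than SkMRMs (-2.76, SE 0.17, adjusted p = 4.85e-10). Gal-3+ macrophages and SkMRMs differed by 0.41 (SE 0.16, adjusted p = 0.0426), which was not called. Chondrocyte markers, of which 6 of 10 were analysed here, took 0.0359 to 0.0759% of reads in SkMRMs, 0.00238 to 0.00340% in gal-3+ cells and 0.00108 to 0.00111% in MDMs. The part of chondrocytes in the *Mmp13* values was not tested. *Acan* (MDM mdx5) and *Matn3* (gal-3+ mdx5, MDM mdx4 and mdx5) were the chondrocyte markers at 0 in any library.

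The gelatinases *Mmp9* and *Mmp2*, which cut denatured collagen and basement membrane collagen, were both highest in SkMRMs. *Mmp9* had 2715, 2242 and 2651 normalized counts in the SkMRM libraries, 50.5, 45.3, 168 and 166 in the gal-3+ libraries, and 218, 324 and 432 in the MDM libraries. No populations overlapped, but the gal-3+ libraries fell into a lower pair (65 and 34 reads) and a higher pair (164 and 170 reads). Against SkMRMs, *Mmp9* was 27.9-fold lower in gal-3+ cells (log2 fold change -4.80, SE 0.39, limma adjusted p = 2.32e-08) and 8.06-fold lower in MDMs (-3.01, SE 0.41, adjusted p = 8.84e-06). MDMs had 3.46-fold more than gal-3+ cells (1.79, SE 0.39, adjusted p = 0.0015), a call that was lost in a fit of these populations alone (adjusted p = 0.0136) and without MDM mdx5 (1.56, adjusted p = 0.0131). *Mmp2*, which is not among the 9 genes, fell from 2636 ± 277 in SkMRMs to 841 ± 150.2 in gal-3+ cells (-1.66, SE 0.13, adjusted p = 1.05e-08) and 753 ± 8.28 in MDMs (-1.80, SE 0.13, adjusted p = 5.33e-09).

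Osteoclasts are known to make *Mmp9*, and the 12 osteoclast markers analysed here took 0.0397 to 0.0412% of reads in SkMRMs, 0.0791 to 0.0956% in gal-3+ cells and 0.0406 to 0.0440% in MDMs. Of the 12, 5 were called higher and 0 lower in gal-3+ cells against SkMRMs, 5 higher and 1 lower in MDMs against SkMRMs, and 0 higher and 4 lower in MDMs against gal-3+ cells. Over all genes 17.3%, 26.8% and 11.5% were called in these comparisons. *Acp5*, tartrate-resistant acid phosphatase, had 140.5 ± 27.7, 3412 ± 294 and 922 ± 89.7 normalized counts in SkMRMs, gal-3+ macrophages and MDMs, and *Atp6v0d2*, a subunit of the proton pump, 375 ± 9.32, 8954 ± 992 and 1739 ± 419.7. Macrophages express both as well. The means of *Ctsk*, cathepsin K, were 773, 618 and 518, and it was not called. *Calcr*, the calcitonin receptor, had its highest mean in SkMRMs, with 124 ± 19.3, 57.8 ± 40.9 and 10.4 ± 6.33, and was called lower in MDMs in both comparisons. The part of osteoclasts in the *Mmp9* and *Mmp12* results was not tested. *Dcstamp*, a fusion receptor of osteoclasts, was at 0 in SkMRM WT1 and WT2, and *Car2* in MDM mdx5.

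*Mmp14* encodes a protease anchored in the cell membrane, which cuts fibrillar collagen and activates the zymogen of MMP2 with TIMP2 as an adaptor. Its normalized counts were 1598, 1260.3 and 916 in SkMRMs, 8729, 8078, 7878 and 9120.1 in gal-3+ cells and 5396, 5181 and 6763 in MDMs. The mdx libraries were several-fold above the SkMRM libraries, and each gal-3+ library was above each MDM library. *Mmp14* was 6.87-fold higher in gal-3+ cells (log2 fold change 2.78, SE 0.14, limma adjusted p = 4.46e-11) and 4.68-fold higher in MDMs (2.23, SE 0.15, adjusted p = 1.31e-09) than in SkMRMs. MDMs had 1.47-fold less than gal-3+ cells (-0.56, SE 0.14, adjusted p = 0.00447), which is under the fold of 2 and was not called.

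*Mmp19* encodes a protease of basement membrane proteins that is known to be expressed in myeloid cells. It had 1015, 1025 and 1155 normalized counts in SkMRMs, 10905, 11295, 9142 and 10450 in gal-3+ cells, and 13544, 15404 and 15791 in MDMs. The mdx libraries were far above the SkMRM libraries, and each MDM library was above each gal-3+ library. It was 9.79-fold higher in gal-3+ cells (log2 fold change 3.29, SE 0.09, limma adjusted p = 1.76e-14) and 13.98-fold higher in MDMs (3.81, SE 0.09, adjusted p = 3.52e-15) than in SkMRMs. The step from gal-3+ macrophages to MDMs was 1.43-fold (0.51, SE 0.09, adjusted p = 0.000153) and was not called. *Mmp19* shares 789 bases, 22.3% of its exon bases, with *Tmem198b* on the other strand, which had 686 ± 39.8, 737 ± 20.99 and 559 ± 46.5 normalized counts and so did not rise with *Mmp19*.

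Among the inhibitors, *Timp2* and *Timp3* were highest in SkMRMs and lowest in MDMs, and *Timp1* was lowest in SkMRMs. *Timp2*, a soluble inhibitor, had 31073, 29805 and 25102 normalized counts in SkMRMs, 16673, 17817, 19260 and 17770 in gal-3+ cells and 4688, 4109 and 4414 in MDMs. The 3 populations were wide apart. MDMs had 6.49-fold less *Timp2* than SkMRMs (log2 fold change -2.70, SE 0.09, limma adjusted p = 1.07e-13) and 4.06-fold less than gal-3+ cells (-2.02, SE 0.08, adjusted p = 1.68e-11). Gal-3+ macrophages had 1.60-fold less than SkMRMs (-0.68, SE 0.08, adjusted p = 3.31e-06), under the fold of 2.

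*Timp3* encodes an inhibitor that binds to the matrix and also blocks membrane sheddases. It had 3479, 2938 and 2015 normalized counts in the WT libraries, 1726, 1791, 1215 and 1572 in gal-3+ cells and 778, 471 and 666 in MDMs. SkMRM WT3 was nearest to the gal-3+ libraries. MDMs had 4.38-fold less than SkMRMs (log2 fold change -2.13, SE 0.20, limma adjusted p = 8.28e-08) and 2.49-fold less than gal-3+ cells (-1.32, SE 0.18, adjusted p = 2.97e-05). Gal-3+ macrophages had 1.76-fold less than SkMRMs (-0.81, SE 0.18, adjusted p = 0.00162), which passed the fold of 2 without SkMRM WT3 (-1.04, adjusted p = 9.57e-05). *Timp3* lies within *Syn3* on the other strand and shares 21.3% of its exon bases with it, and *Syn3* had 31.2 ± 10.7, 11.1 ± 10.1 and 3.16 ± 5.48 normalized counts, far fewer than *Timp3*.

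*Timp1*, a secreted inhibitor that is known to rise in injured and fibrotic tissue, had 120.1, 149 and 104 normalized counts in SkMRMs, 285, 267, 215 and 303 in gal-3+ cells and 226, 272 and 499 in MDMs. The mdx libraries were above the SkMRM libraries and overlapped each other, with MDM mdx5 far above the other MDM libraries. *Timp1* was 2.15-fold higher in gal-3+ cells (log2 fold change 1.10, SE 0.26, limma adjusted p = 0.00187) and 2.54-fold higher in MDMs (1.34, SE 0.27, adjusted p = 0.00047) than in SkMRMs. The call for gal-3+ macrophages was lost without SkMRM WT3 (0.98, adjusted p = 0.00896) and with upper quartile scaling (0.99, adjusted p = 0.00432), as the fold came just under 2. MDMs and gal-3+ macrophages differed by 0.24 (SE 0.26, adjusted p = 0.487), and by -0.10 (adjusted p = 0.787) without MDM mdx5. *Timp1* lies in an intron of *Syn1* on the other strand and shares no exon with it, and *Syn1* had 78.8 ± 25.4, 169.6 ± 48.9 and 125 ± 5.80 normalized counts.

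**Figure D2:**
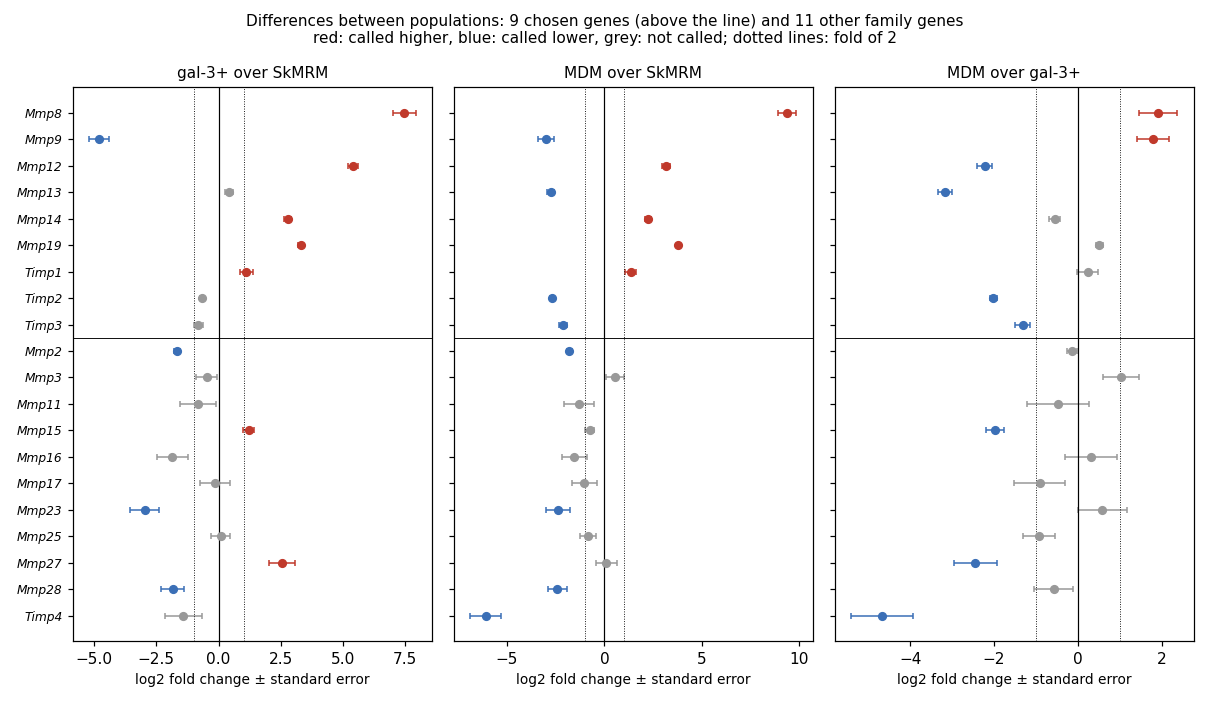
Log2 fold change (x axis, points, with bars for the standard error) of the 9 genes, above the line, and of 11 other family genes, below it (y axis), for each pair of populations. Red points are called higher, blue points lower and grey points not called, and dotted lines mark a fold of 2. *Mmp9* is the only protease of the 9 that is blue in the first panel, and *Timp2* and *Timp3* are blue in the other panels.

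The summed reads of stromal marker lists were highest in the SkMRM libraries, where *Timp2*, *Timp3*, *Mmp2* and *Mmp9* were high as well. The 16 markers of fibroblasts and fibro/adipogenic progenitors took 1.94, 1.20 and 0.937% of reads in the SkMRM libraries WT1, WT2 and WT3, 0.168 to 0.233% in gal-3+ cells and 0.192 to 0.219% in MDMs. Of the 16, 0 were called higher and 8 lower in gal-3+ cells against SkMRMs, and 1 higher and 4 lower in MDMs against SkMRMs. Over all genes 5.34% were called higher and 11.9% lower in the first comparison, and 8.81% and 18% in the second. *Col1a2*, a collagen I chain and one of the 16, made up most of their sum in SkMRMs. It had means of 303570, 16700 and 16151 normalized counts in SkMRMs, gal-3+ cells and MDMs. Many of the 16 did not follow it, as 8 were not called in the first comparison and 11 in the second. *Col3a1* had means of 40713, 28035 and 35116 and *Gsn* of 11924, 10845 and 12144. The marker called higher in MDMs was *Pi16*, with means of 132, 128 and 678. The 10 tenocyte markers took 0.638, 0.539 and 0.520% in SkMRMs, 0.0826 to 0.105% in gal-3+ cells and 0.0458 to 0.0535% in MDMs, and *Mkx* in MDM mdx5 was the one at 0. Of the 8 osteoblast and osteocyte markers analysed here, *Col1a1* made up most of the sum of 1.20 to 2.97% in SkMRMs, with 0.0675 to 0.109% in gal-3+ cells and 0.0719 to 0.0818% in MDMs, and *Phex* and *Sost* were each at 0 in 1 gal-3+ and 1 MDM library. Within SkMRMs, *Timp2*, *Timp3*, *Mmp14* and *Mmp2* were highest in WT1 and lowest in WT3, as the fibroblast, tenocyte and chondrocyte markers were. The order was not particular to these lists. Summed osteoblast and osteocyte, endothelial, smooth muscle and pericyte, and lymphocyte markers had it too. Muscle fiber and satellite cell markers had the reverse order, and neutrophil, osteoclast and macrophage markers had other orders. How many of all genes had this order was not counted. The others of the 9 genes had other orders. *Mmp12*, *Mmp13* and *Timp1* were highest in WT2, *Mmp9* was lowest in WT2 and *Mmp19* highest in WT3, and *Mmp8* had almost no reads. The part of these cell types in the SkMRM values of the 9 genes was not tested. Between the mdx populations, 10 of 11 smooth muscle and pericyte markers, 12 of 14 muscle fiber and satellite cell markers and 8 of 15 endothelial markers were called lower in MDMs than in gal-3+ cells and 0 higher. Of all genes, 8.19% were called lower and 3.32% higher there. The sums of these marker lists were 0.0361 to 0.0473%, 0.0330 to 0.0401% and 0.0700 to 0.0917% of reads in gal-3+ cells, and 0.00999 to 0.0110%, 0.0113 to 0.0118% and 0.0459 to 0.0523% in MDMs. The part of these cell types in the *Timp2* and *Timp3* differences was not tested. The counts of called genes were 5 higher and 1 lower without SkMRM WT1 and 4 higher and 2 lower without WT3 for gal-3+ macrophages over SkMRMs, and 5 higher and 4 lower without either for MDMs over SkMRMs. Over all genes the counts were 917 higher and 1476 lower without WT1 and 900 and 1520 without WT3 for the first comparison (908 and 2027 with all libraries), and 1445 and 2478 and 1527 and 2704 for the second (1498 and 3064).

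**Figure D3:**
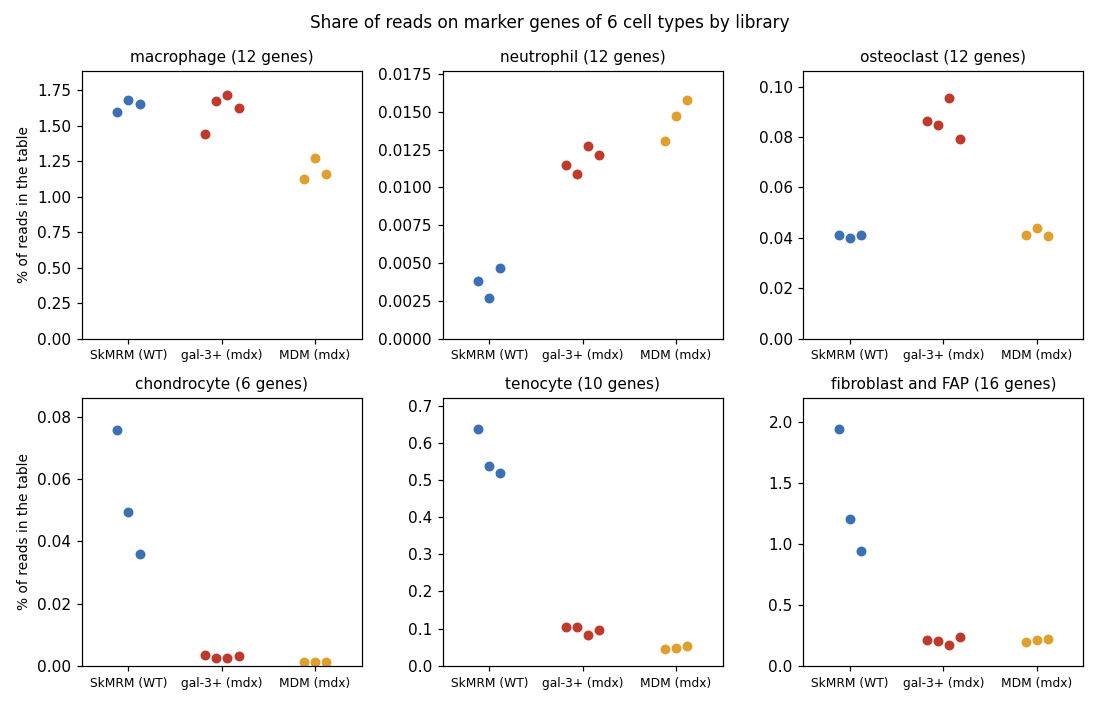
Share of the reads of each library (y axis, %, linear from 0, a separate scale in each panel) that fell on marker genes of 6 cell types, with a point per library in each population (x axis). Fibroblast and fibro/adipogenic progenitor (FAP), tenocyte and chondrocyte markers are highest in the 3 SkMRM libraries, osteoclast markers in the 4 gal-3+ libraries and neutrophil markers in the 3 MDM libraries.

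To compare levels between genes, normalized counts were divided by the length of all annotated exons in kb. *Timp2* had the highest level per kb of the 9 genes in SkMRMs, at 7356 ± 808 normalized counts per kb, and in gal-3+ cells, at 4589 ± 272, whereas in MDMs *Mmp19* was first at 4221 ± 340.0 per kb and *Timp2* second at 1130.3 ± 74.3. Among the 6 proteases, the leading one changed with the population. *Mmp9* made up 44.9% of the summed level of the 6 proteases per kb in SkMRMs, and *Mmp19* 52.0% in gal-3+ cells and 70.0% in MDMs. *Mmp14* was second in both mdx populations, with 25.0% and 16.1%. These shares depend on the length used. All exons of *Mmp14* and *Mmp12* span 5960 and 7237 bases, but their longest transcripts have 3238 and 4474. For *Mmp19* the lengths are 3533 and 3402 bases, so by longest transcript its share in the mdx populations would be smaller. The shares also depend on the list of 6. *Mmp2*, which is outside it, had 782 ± 82.1 normalized counts per kb in SkMRMs, above *Mmp9* at 717 ± 72.6. In gal-3+ cells and MDMs *Mmp2* had 250 ± 44.6 and 223 ± 2.46. *Timp2* made up 93.8%, 90.3% and 71.4% of the summed level of the 3 inhibitors, and *Timp1* 1.79%, 5.93% and 23.6%.

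The ratio of the summed protease level to the summed inhibitor level was lowest in SkMRMs and highest in MDMs. It was 0.197, 0.188 and 0.229 in SkMRMs, 1.23, 1.15, 0.982 and 1.11 in gal-3+ cells and 3.56, 4.30 and 3.63 in MDMs, with no overlap and means of 0.205 ± 0.0215, 1.12 ± 0.105 and 3.83 ± 0.412. The protease sum went from 1595 ± 77.3 normalized counts per kb in SkMRMs to 5683 ± 317 in gal-3+ cells and 6028 ± 470.1 in MDMs, and the inhibitor sum from 7841 ± 914 to 5084 ± 214 and 1583 ± 181. The difference between SkMRMs and gal-3+ macrophages thus lay in both sums, and that between gal-3+ macrophages and MDMs lay mostly in the inhibitor sum. These are RNA levels of genes chosen by name, given as a description with no test. *Mmp2*, whose level per kb was highest in SkMRMs, is not in the protease sum, and the ratio with it was not calculated. Leaving out *Timp2* moved the ratio most in each population, and among the proteases leaving out *Mmp19* moved it most in the mdx populations and *Mmp9* in SkMRMs. Without *Mmp19* the means were 0.166, 0.537 and 1.15, and without *Timp2* they were 3.40, 11.6 and 14.2, and the MDM libraries (10.03 to 16.8) then overlapped the gal-3+ libraries (10.6 to 13.4).

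**Figure D4:**
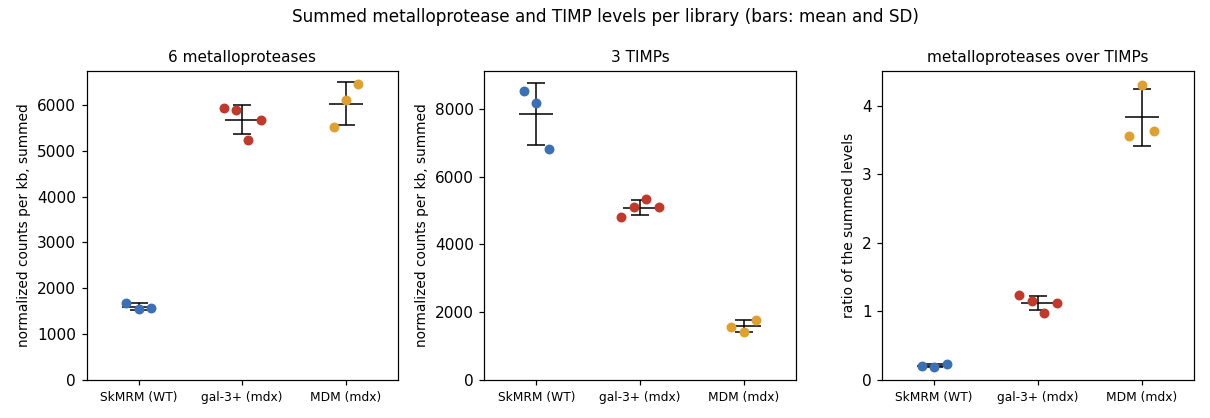
Summed level of the 6 proteases and of the 3 inhibitors (y axes, normalized counts per kb of exon) and their ratio (y axis, no unit) in each library of the 3 populations (x axis), with a point per library and bars for the mean and SD. The ratio lies near 0.205 in SkMRMs, 1.12 in gal-3+ cells and 3.83 in MDMs.

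Of 18 other metalloprotease and TIMP genes looked for, 11 were analysed here. In gal-3+ macrophages against SkMRMs 2 were called higher and 3 lower, in MDMs against SkMRMs 0 higher and 4 lower, and in MDMs against gal-3+ macrophages 0 higher and 3 lower. Their median log2 fold changes were -0.83, -1.31 and -0.58, beside -0.11, -0.17 and 0.03 over all genes. In these comparisons 17.3%, 26.8% and 11.5% of all genes were called. *Mmp15*, which encodes a membrane protease related to MMP14, was highest in gal-3+ cells, at 595 ± 111 normalized counts against 260.4 ± 69.5 in SkMRMs (log2 fold change 1.21, SE 0.21, limma adjusted p = 0.000193) and 150.5 ± 22.2 in MDMs (-1.97 for MDMs over gal-3+ macrophages, SE 0.21, adjusted p = 2.15e-06). Without SkMRM WT3 the first of these fell under the fold of 2 (0.96, adjusted p = 0.00117). *Mmp27*, next to *Mmp8* in the cluster on chromosome 9, was highest in gal-3+ cells, with 32.7, 20.97 and 23.5 normalized counts in SkMRMs, 162, 129, 209 and 123 in gal-3+ cells and 44.3, 8.93 and 48.1 in MDMs. It was 5.84-fold higher in gal-3+ cells than in SkMRMs (2.55, SE 0.51, adjusted p = 0.000611) and 5.46-fold lower in MDMs than in gal-3+ cells (-2.45, SE 0.51, adjusted p = 0.00116). MDM and SkMRM libraries overlapped (0.10, SE 0.55, adjusted p = 0.892).

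*Mmp23* and *Mmp28*, like *Mmp2*, were lower in both mdx populations than in SkMRMs. *Mmp23* had 162 ± 39.2 normalized counts in SkMRMs, 24.3 ± 16.9 in gal-3+ cells and 33.1 ± 18.6 in MDMs, and *Mmp28* had 215 ± 61.1, 61.8 ± 27.3 and 43.8 ± 29.0. The call of *Mmp28* in gal-3+ cells was lost without SkMRM WT1 or WT2 or gal-3+ mdx5 (adjusted p 0.0111 to 0.0244), and that of *Mmp23* in MDMs without SkMRM WT1 or WT2 or MDM mdx1 or mdx5 (adjusted p 0.0113 to 0.0212). *Timp4*, an inhibitor known from heart and muscle, had 230, 176 and 44.4 normalized counts in SkMRMs and 36.5, 29.3, 90.3 and 40.9 in gal-3+ cells, but 3 reads in MDM mdx1 and 0 in mdx4 and mdx5, so it was called lower in MDMs in both comparisons and no fold is given. *Mmp3*, *Mmp11*, *Mmp16*, *Mmp17* and *Mmp25* were not called in any comparison.

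Genes that act on the proteases moved in both directions. Of 18 listed activators of the zymogens, 14 were analysed here, and 4 were called higher and 2 lower in gal-3+ cells than in SkMRMs, 3 higher and 3 lower in MDMs than in SkMRMs, and 0 higher and 2 lower in MDMs than in gal-3+ cells. Of all genes, 5.34% were called higher and 11.9% lower in the first comparison. In the second these shares were 8.81% and 18%, and in the third 3.32% and 8.19%. The median log2 fold changes of the 14 were -0.24, -0.14 and -0.11, beside -0.11, -0.17 and 0.03 over all genes. The genes named next were chosen for the size of their change. *Plaur*, the receptor that holds the plasminogen activator urokinase at the cell surface, rose from 3473 ± 434 normalized counts in SkMRMs to 11318 ± 818 in gal-3+ cells and 16378 ± 1181 in MDMs (log2 fold changes 1.71 and 2.24, SE 0.09 each, limma adjusted p = 6.55e-11 and 3.07e-12). *Ctss*, the cysteine protease cathepsin S, rose from 25805 ± 1047 to 172848 ± 13654 and 99394 ± 2611. The proprotein convertases *Pcsk5* (610 ± 167, 139.9 ± 18.4 and 123 ± 56.3) and *Pcsk6* (489 ± 115.5, 93.2 ± 14.6 and 119 ± 36.3) were lower in both mdx populations.

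Of 19 other inhibitors and genes of binding and uptake of the proteases, 17 were analysed here, with 7 called higher and 4 lower in gal-3+ cells than in SkMRMs, 6 and 6 in MDMs than in SkMRMs and 3 and 4 in MDMs than in gal-3+ cells. In these comparisons 17.3%, 26.8% and 11.5% of all genes were called. The median log2 fold changes of the 17 were 0.53, 0.20 and -0.15, beside -0.11, -0.17 and 0.03 over all genes. *Thbs1*, thrombospondin, which binds proteases and activates latent TGF-β, had 8433 ± 2841 normalized counts in SkMRMs, 157310 ± 23268 in gal-3+ cells and 485082 ± 61130.3 in MDMs, and like *Mmp19* it was highest in MDMs. *Serpinb2*, an inhibitor of urokinase, had 119 ± 17.7, 271 ± 74.0 and 1420.0 ± 569, and its call in gal-3+ cells over SkMRMs was lost without gal-3+ mdx5 (log2 fold change 0.99, adjusted p = 0.00653). *Spp1*, osteopontin, a matrix protein that metalloproteases cut, had 264 ± 96.2, 127705 ± 17072 and 124698 ± 44765, and *Spock2*, a testican, had 632 ± 268, 34.6 ± 6.70 and 46.1 ± 20.1.

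Of 17 matrix substrates, 1 was called higher and 8 lower in gal-3+ cells than in SkMRMs, 1 higher and 10 lower in MDMs than in SkMRMs, and 1 higher and 3 lower in MDMs than in gal-3+ cells. The one called higher in each was *Fn1*, fibronectin, with 12443 ± 2279, 97217 ± 11143 and 324466 ± 45443 normalized counts (log2 fold changes 2.97, 4.71 and 1.74, SE 0.12, 0.13 and 0.12, limma adjusted p = 3.53e-12, 1.64e-14 and 1.87e-08). The median log2 fold changes of the 17 were -0.82, -1.18 and -0.11, beside -0.11, -0.17 and 0.03 over all genes. In these comparisons 17.3%, 26.8% and 11.5% of all genes were called. *Col1a1*, the main fibrillar collagen, had 549888 ± 262898 in SkMRMs, 28391 ± 5580.0 in gal-3+ cells and 25949 ± 1588 in MDMs. The cartilage genes *Col2a1* (2664 ± 1198, 59.2 ± 23.2 and 24.3 ± 8.07) and *Acan* (414 ± 196, 27.2 ± 21.6 and 7.31 ± 7.04) had the same order. These collagen and cartilage genes are among the stromal markers above, and their high values stood in the same SkMRM libraries.

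The genes whose levels across the 10 libraries were most like each protease and inhibitor are given by Pearson's r of log2 values, as a description without a test, since the libraries form 3 populations and any gene that separates them alike scores high. *Mmp12* was most like *Acp5* (r = 0.9974), *Uhmk1* (0.9947) and *Stra6l* (0.9922). *Mmp8* was most like *Dock5* (0.9959), and *Mmp19* was most like *Gnptab* (0.9979), a transferase of the lysosomal enzyme tag, and *Aprt* and *Gpr35* (0.9969 each). *Mmp13* was most like *Ap1b1* (0.993), *Fcrls* (0.9897) and the complement gene *C1qb* (0.9888), all of which were lowest in MDMs. *Mmp14* was most like *Lhfpl2* (0.9952) and *Pdpn* (0.9928), podoplanin. *Timp2* was most like *Sorbs3* (0.997), *Glul* and *Stab1* (0.9962 each), and *Timp3* was most like *Hspg2* (0.9876), perlecan of the basement membrane. The lowest values for a first gene were those of *Mmp9* (*Arhgef18*, 0.9702) and *Timp1* (*Asl*, 0.9745).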

How the data were processed

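The deposited table holds 10 libraries. Per the labels, 2 ng of total RNA entered SMARTer Stranded Total RNA-Seq Kit v2 libraries. The authors sequenced paired ends, mapped reads to mm10 with TopHat2 2.0.14 and GENCODE M9, counted them with HTSeq 1.99.2 and divided counts by DESeq2 1.28.1 size factors, which gave the deposited signal (normalized counts). Their 18 columns of comparisons (mean, log2 fold change, SE, Wald statistic, p and adjusted p per pair) were not used. Columns were matched to populations by name, since the mdx numbers in them differ from the numbering in the titles.

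The main test was limma 3.58.1 (R 4.3.3) on log2(normalized count + 1) (all 10 libraries, 7 residual degrees of freedom, trended variance), with Benjamini-Hochberg adjustment over all genes and a call at a fold of 2 and adjusted p under 0.01. A minimum of 10 normalized counts in 3 libraries removed 0 genes. Named genes are the 9 genes, other family genes, the 4 largest changes per pathway list, the leading markers per cell type and the 3 most alike genes. Genes and lists were chosen with earlier results of these data known. Alternatives were pseudocounts, minimums, TMM and upper quartile scaling, count tests on recovered reads (edgeR 4.0.16, DESeq2 1.42.0), a replicate block, left-out libraries and thresholds. On simulated data of the first comparison, 83.8% of genes at a log2 fold change of 1.5 and 97.0% at 3 were called. Changes were put only on genes above a minimum mean in gal-3+ cells, with a spread set by level alone. These shares therefore do not cover a gene such as *Mmp8*, with almost no reads in SkMRMs.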

Additional observations from a re-analysis of the deposited data

Results flagged for a closer look

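In the gal-3+ group of 4, a single library stood far from the others in 5 of 100 values examined, and chance gives about 1 in 20 groups. None was among the 9 genes. *Cfp*, a gene like *Mmp9* in pattern, had 3862 normalized counts in mdx3 and 4377 to 4465 in the others. *Slain2*, a gene like *Mmp8* in pattern, had 3098 in mdx5 and 2904 to 2926 in the others. *Comp*, a marker of cartilage and tendon, had 108.2 in mdx5 and 80.0 to 81.6 in the others. *Mkx*, a tendon transcription factor, had 38.68 in mdx3 and 6.16 to 8.55 in the others. *Padi4*, a neutrophil marker, had 354.5 in mdx1 and 226 to 235 in the others.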

How the results depend on the processing

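Of 594 comparisons of a log2 fold change of the 9 genes with its value under an alternative, 580 kept their direction and side of the threshold, 8 lost the call, 5 gained it and 1 (*Timp1*, MDMs over gal-3+ macrophages, without MDM mdx5) reversed. Part of this agreement was fixed in advance. The minimum of 10 normalized counts removed 0 genes and repeated the main fit. The changed thresholds reused that fit, so no direction could change there. The 9 genes had 6, 9 and 6 calls for gal-3+ macrophages over SkMRMs, MDMs over SkMRMs and MDMs over gal-3+ macrophages. These counts ranged from 6 to 6, 9 to 9 and 4 to 6 with each library left out, the lowest without MDM mdx5. Over all genes the calls of the last comparison also fell without MDM mdx5, to 409 higher and 1222 lower (564 and 1392 with all libraries). The counts of the 9 genes were 8, 9 and 8 with no minimum fold, which added *Timp2* and *Timp3* in the first and *Mmp14* and *Mmp19* in the last. With the replicate block, the number in the column name, they were 6, 9 and 6. Residuals of gal-3+ and MDM libraries with a shared number correlated at -0.0279, 0.0102 and 0.0253, and those with different numbers at -0.0227 to 0.0466. Residuals from means of 3 or 4 libraries cannot decide whether a shared number stands for a shared mouse. The numbers were not taken as pairs, because the labels leave this open. The block also put SkMRM WT1 together with the mdx1 libraries and WT3 with gal-3+ mdx3, which are from different mice. Over all genes the block called 782 higher and 1174 lower (908 and 2027 without it), 1242 and 1967 (1498 and 3064) and 522 and 1227 (564 and 1392), and an adjusted p under 0.05 called 938 higher and 1789 lower in the last. With no minimum fold the calls over all genes were 3063 higher and 3015 lower, 3793 and 4002, and 2212 and 2460. Under the block the calls of *Mmp27* (log2 fold change 2.52, adjusted p = 0.0119), *Mmp28* (-2.03, adjusted p = 0.0182) and *Serpinb2* (0.79, adjusted p = 0.0223) in gal-3+ macrophages over SkMRMs and of *Mmp23* in MDMs over SkMRMs (-2.68, adjusted p = 0.0311) were lost. Those calls compare mdx with WT libraries, which cannot share a mouse, so their loss does not test a pairing. Upper quartile scaling moved the median of all genes by -0.12 and -0.15 in the comparisons with SkMRMs. Relative to that median *Timp1* was at 1.21 and 1.51 there, *Timp2* at -0.57 and -2.53 and *Mmp13* at 0.52 and -2.59.

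Changes of sign were otherwise in genes that were not called. In gal-3+ macrophages over SkMRMs *Mmp25* was at -0.025 with upper quartile scaling and ranged from -0.030 to 0.23 with each library left out (below 0 without SkMRM WT1 or gal-3+ mdx1), and *Mmp17* ranged from -0.42 to 0.25 (above 0 without either of the same). In MDMs over SkMRMs *Mmp27* was at -0.052 with upper quartile scaling and ranged from -0.31 to 0.85 (below 0 without SkMRM WT2, MDM mdx1 or mdx5). In MDMs over gal-3+ macrophages *Mmp11* was at 0.10 with edgeR and 0.13 with DESeq2 and ranged from -1.38 to 0.36 (above 0 without MDM mdx5), *Mmp16* from -0.13 to 1.02 (below 0 without gal-3+ mdx3 or MDM mdx1), *Spp1* from -0.36 to 0.14 (above 0 without MDM mdx1) and *Timp1* from -0.10 to 0.47 (below 0 without MDM mdx5). The cause was not tested.

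The mean protease to inhibitor ratio kept its order of populations in every setting, but without *Timp2* the MDM libraries (10.03 to 16.8) overlapped the gal-3+ libraries (10.6 to 13.4). In SkMRMs it moved from 0.205 to 0.113 without *Mmp9*, 0.160 without *Mmp13*, 0.178 without *Mmp14*, 0.166 without *Mmp19* and 3.40 without *Timp2*. In gal-3+ macrophages it moved from 1.12 to 1.29 with no division by length, 1.36 with the longest transcript (chosen after seeing the data), 0.990 without *Mmp12*, 0.841 without *Mmp14*, 0.537 without *Mmp19* and 11.6 without *Timp2*. In MDMs it moved from 3.83 to 4.40 with no division by length, 3.22 without *Mmp14*, 1.15 without *Mmp19*, 5.02 without *Timp1* and 14.2 without *Timp2*.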
